A study of Arabidopsis thaliana with 30 samples.

Results

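Signals of 7 genes that pattern the Arabidopsis thaliana root were followed through regeneration of the root tip. The genes were BBM (AT5G17430), JKD (AT5G03150), AGL42 (AT5G62165), LHW (AT2G27230), OPS (AT3G09070), CLE40 (AT5G12990) and GSO1 (AT4G20140). They were chosen by name, with earlier results of these data known, 1 probe set each, out of 22746 probe sets on the Affymetrix ATH1 array. All roots were of the accession Col-0, with no transgene named in the labels. Seedlings were grown for 4 days after germination (4 dpg), the distal 130 µm of the root was cut away, and 70 µm of the remaining root, the stump, was taken from beside the cut 0, 5, 13 or 22 h later. Root tips of 4 dpg and 8 dpg seedlings, a stump labelled 8 dpg and a section 270 to 340 µm from the tip completed the set. The design text presents the tips as the end state of regeneration and the section as cut tissue that does not regenerate. The titles say that the section was harvested at once, so in time it corresponds to the 0 h stump and not to the later ones, and the labels give it no age. The labels of the stump at 8 dpg conflict: the title gives 0 h and the source name gives 192 h after the first cut, so its history is not settled here. Titles print the lengths in mm and the protocol in µm. The 8 groups held 30 arrays: the 4 dpg tip and the stumps of 0, 5 and 13 h had 4 arrays each, the 22 h stump had 5, and the 8 dpg tip, the 8 dpg stump and the section had 3 each. Each array carried RNA from at least 25 pooled pieces of tissue.

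The root grows from a stem cell niche at its tip, where slowly dividing quiescent centre cells border the initials of each tissue file. Transcription factors of the PLETHORA and SHORTROOT/SCARECROW pathways set the niche and the ground tissue around it, secreted peptides and receptor kinases adjust the distal stem cells, and separate factors pattern the vascular cylinder inside. Behind the meristem, cells stop dividing and differentiate, and the endodermis builds the Casparian strip, a barrier in its cell walls. BBM belongs to the PLETHORA group of AP2-domain transcription factors that maintain the root meristem. JKD is a zinc-finger transcription factor that acts with SCARECROW to limit the movement of SHORTROOT. AGL42 is a MADS-box transcription factor known for its expression in the quiescent centre. LHW is a basic helix-loop-helix factor that promotes cell divisions in the vascular cylinder, and OPS is a polar membrane protein needed for protophloem differentiation. CLE40 is a secreted peptide that restrains distal stem cells. GSO1, also called SGN3, is a receptor kinase that senses peptides of the CIF family and closes the Casparian strip.

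Values are MAS5 signals, a linear intensity that the authors deposited. Differences between groups are on the log2(signal + 32) scale, which understates the change of dim genes, and each is given with its standard error. A difference was called at an adjusted p under 0.05 (limma across all 22746 probe sets with Benjamini-Hochberg adjustment) and a log2 difference of 1 or more in either direction. Separate sowings are not stated for the replicates, so a p-value here reflects only how far these arrays differ, which may be technical. Precision is limited by the 3 to 5 arrays per group. Each standard error uses a spread pooled over all 8 groups, so it does not show where a compared group spread more widely than the others. The median signal of an array lay between 66.1 and 141.8. It was above 120 on 4 arrays: stump 0 h replicates 1 and 2, tip 4 dpg replicate 1 and stump 22 h replicate 1. Of the fixed markers, those of the meristem tip (0 of 3 named probe sets), the root cap (0 of 3) and the differentiating endodermis (0 of 3) could not be read here, so the labelled tissues were checked only through genes of cell division, endoreduplication and root hairs, the last of which are described with GSO1. Of 8 division markers, 3 had a named probe set, the Aurora kinase genes AUR1, AUR2 and AUR3, which act in mitosis. They had their highest section signal at 245.2, 80.2 and 141.0, and their lowest at 1225.7, 438.1 and 454.5 in the tip at 8 dpg.

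All 7 genes were tested in every comparison, with no filter on low values. LHW was above the array's own median signal on 30 of 30 arrays, BBM on 18, AGL42 and GSO1 on 17, JKD on 13, OPS on 2 and CLE40 on 1. OPS and CLE40 belong to the 40% of probe sets with the lowest mean signal. The log2 means of the 8 groups spanned 2.94 for BBM, 2.13 for GSO1, 2.06 for AGL42, 1.32 for JKD, 1.22 for CLE40, 0.966 for OPS and 0.781 for LHW. The SD within groups, pooled over all arrays on the same log2 scale, was 0.512 for BBM, 0.516 for GSO1, 0.601 for AGL42, 0.644 for JKD, 0.641 for CLE40, 0.558 for OPS and 0.298 for LHW. BBM, GSO1 and AGL42 were thus the genes whose groups lay farthest apart relative to their spread.

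**Figure D1:**
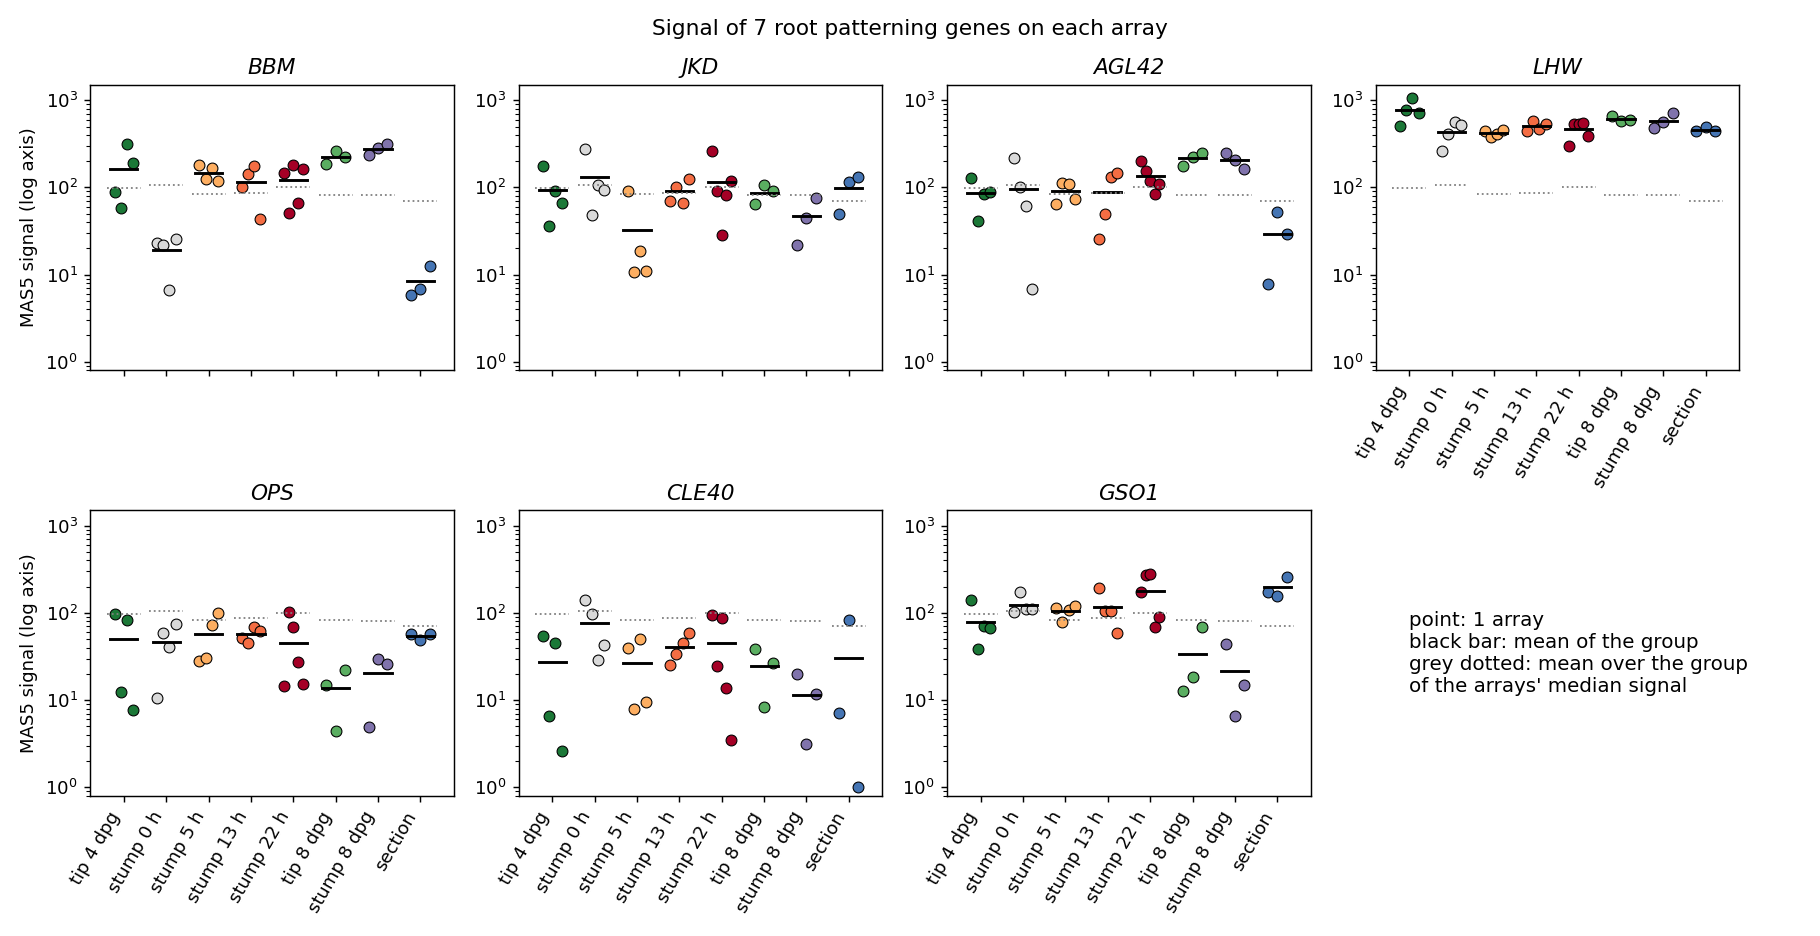
MAS5 signal of each of the 7 genes on a log axis, with 1 point per array, a black bar at the mean of each of the 8 groups and a grey dotted line at the mean of the arrays' median signals. BBM was at 25.5 or below on all 4 stump arrays at 0 h and at 12.5 or below on all 3 section arrays, while LHW stayed at 258.4 or above on all 30 arrays.

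BBM was low in the freshly cut stump and higher on every array of the later stumps. Its signal was 23.3, 21.8, 6.6 and 25.5 on the 4 stump arrays at 0 h, and 87.7, 57.3, 315.1 and 191.9 on the 4 arrays of the excised tip at 4 dpg. The groups did not overlap, and the tip arrays spread far more widely than the stump arrays. The tip at 4 dpg exceeded the stump at 0 h by 1.74 ± 0.365 (log2, SE; limma, adjusted p = 0.00497). This was the 1 gene of the 7 called in that comparison, where 2.17% of all probe sets were called. In bulk tissue, fewer expressing cells and less RNA per cell cannot be told apart.

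At 5 h the BBM signal in the stump was 182.0, 124.2, 166.3 and 118.2. All 4 arrays lay within the range of the excised tip and above every array at 0 h. The rise from 0 h was 1.81 ± 0.365 (limma, adjusted p = 0.00314), and BBM was the 1 gene of the 7 called there, against 2.63% of all probe sets. At 13 h the signal was 100.1, 141.8, 178.0 and 43.1, with replicate 4 the lowest and below its array median of 97.8. At 22 h it was 148.0, 50.5, 180.1, 65.4 and 163.7, so 3 arrays were near the level at 5 h and 2 were below the array median. BBM exceeded the 0 h level by 1.44 ± 0.365 at 13 h (limma, adjusted p = 0.0259) and by 1.50 ± 0.346 at 22 h (limma, adjusted p = 0.0150). Again it was the 1 gene of the 7 called, against 1.98% of probe sets at 13 h and 1.47% at 22 h. These comparisons share the 4 arrays at 0 h, so they are not independent of each other. From 5 h to 22 h BBM differed by -0.312 ± 0.346 (95% interval -1.02 to 0.393), and 0 of 7 genes were called, against 1.52% of all probe sets.

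The calls against 0 h depended on how the spread was estimated. With only the groups compared in the fit, the BBM difference passed at 5 h (limma, adjusted p = 0.0452) but not for the tip (0.225), 13 h (0.177) or 22 h (0.231), and with a larger pseudocount, 4 times that used here, all 4 differences fell below 1 on the log2 scale (0.696 to 0.899), where a pseudocount of 1 gave 2.50 to 3.00. The call at 13 h was lost without stump 0 h replicate 3 (limma, adjusted p = 0.0524) or without 13 h replicate 1 (0.0535), 2 (0.0855) or 3 (0.113), and the call at 22 h without stump 0 h replicate 3 (0.0588) or 22 h replicate 3 (0.0627).

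BBM at 22 h differed from the excised tip at 4 dpg by -0.246 ± 0.346 (95% interval -0.951 to 0.458). In that comparison 0 of the 7 genes were called, against 3.43% of all probe sets. The interval allows a stump level from well below the tip to somewhat above it.

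The section, which lies farther from the tip than the stump, carried the least BBM. Its 3 arrays gave 5.8, 6.8 and 12.5, against 185.1, 264.0 and 222.4 in the tip at 8 dpg. The groups were far apart, with a difference of -2.66 ± 0.422 (limma, adjusted p = 1.29e-05). The stump at 22 h exceeded the section by 1.83 ± 0.377 (limma, adjusted p = 0.000695), which fell to 0.837 with the larger pseudocount. Between the section and the stump at 0 h the BBM arrays overlapped (difference -0.332 ± 0.394, 95% interval -1.13 to 0.470). In that comparison 0 of the 7 genes were called by limma, against 10.2% of all probe sets, and CLE40 alone had an unadjusted p under 0.05.

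The stump at 8 dpg had the highest BBM signal of any group, 234.6, 285.4 and 317.0. All 3 lay above every stump array of the time course. The difference from the stump at 0 h, a comparison added after the data were seen, was 2.61 ± 0.394 (limma, adjusted p = 2.02e-05). Between the tip and the stump at 8 dpg the BBM difference was -0.284 ± 0.422 (95% interval -1.14 to 0.573). There 0 of the 7 genes and 0 of all probe sets (0%) were called by limma, with 238 probe sets at an unadjusted p under 0.05 and 15 called when only these groups entered the fit. The tip minus stump difference of BBM at 8 dpg, less that at 4 dpg, was -2.03 ± 0.558, which did not pass (limma, adjusted p = 0.153). In that test, also added after the data were seen, 0 of the 7 genes were called, against 0.189% of all probe sets.

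The mean BBM signal was 19.3 ± 8.6 (SD, n = 4) in the stump at 0 h, 148 ± 31.3 (n = 4) at 5 h, 116 ± 58.0 (n = 4) at 13 h and 122 ± 59.4 (n = 5) at 22 h. It was 163 ± 117 (n = 4) in the 4 dpg tip, 224 ± 39.5 (n = 3) in the 8 dpg tip, 279 ± 41.6 (n = 3) in the 8 dpg stump and 8.37 ± 3.61 (n = 3) in the section. In falling order of log2 mean, the groups of BBM were the 8 dpg stump, the 8 dpg tip, the 5 h stump, the 4 dpg tip, the 22 h, 13 h and 0 h stumps and the section. Among neighbours in this order the arrays were separate at 2 steps, between the 8 dpg tip and the 5 h stump and between the stumps at 13 h and 0 h. In the other 6 genes every pair of neighbours in the order overlapped. The order was set by these same values, and separate neighbours were not counted over all probe sets, so the steps do not set BBM apart from other genes.

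**Figure D2:**
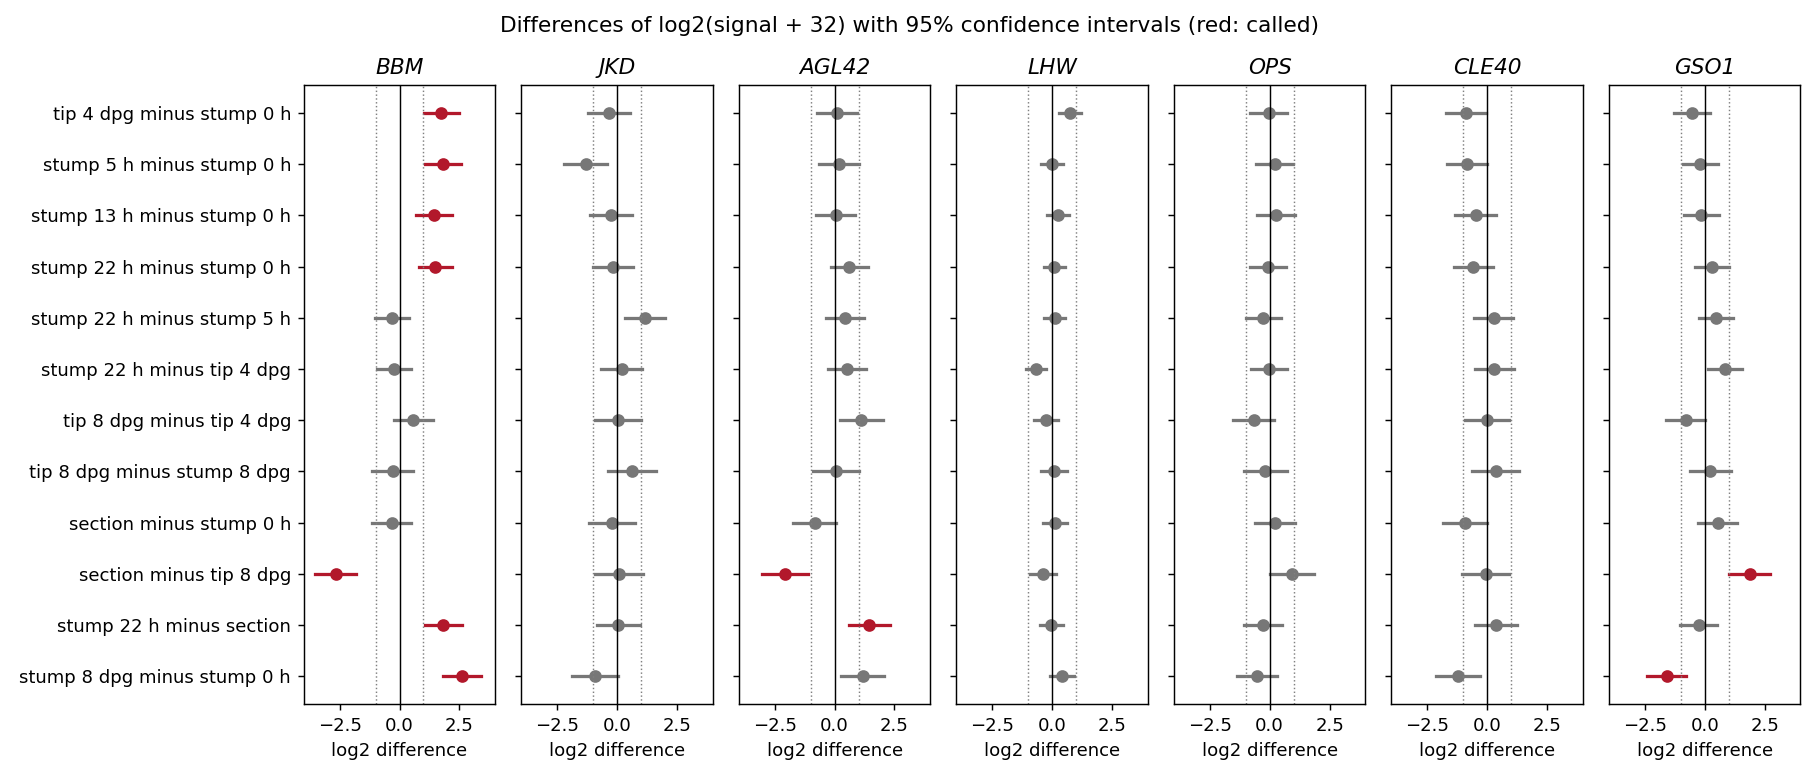
Differences of log2(signal + 32) for the 7 genes in 12 comparisons, with 95% confidence intervals from limma, where red marks a called difference and dotted lines mark a log2 difference of 1 either way. BBM was called in 7 comparisons, AGL42 and GSO1 in 2 each, and JKD, LHW, OPS and CLE40 in none. Several comparisons share arrays, so their calls are not independent. Between 0% and 17.3% of all probe sets were called in them. The comparison of the stump at 8 dpg with the stump at 0 h was added after the data were seen.

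AGL42, the quiescent centre marker, was high at 8 dpg and low in the section. Its signal was 176.9, 222.9 and 246.1 in the tip at 8 dpg, 248.0, 208.5 and 163.0 in the stump at 8 dpg, and 7.8, 51.7 and 28.9 in the section. The section lay below both 8 dpg groups on every array. It differed from the tip at 8 dpg by -2.06 ± 0.471 (limma, adjusted p = 0.00131). With BBM and GSO1, AGL42 was among the 3 of 7 genes called in that comparison, where 17.3% of all probe sets were called.

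In the course of regeneration AGL42 did not pass the test at any time against 0 h. The stump arrays at 0 h alone ranged from 6.8 to 217.1, with 217.1, 100.8, 61.4 and 6.8 in replicates 1 to 4. The later stumps gave 64.5, 113.5, 108.1 and 73.4 at 5 h, 25.4, 49.1, 130.5 and 145.1 at 13 h, and 203.3, 154.5, 118.8, 83.1 and 109.1 at 22 h. All of these fell inside the range of the 0 h arrays, and at 22 h the difference was 0.620 ± 0.387 (95% interval -0.168 to 1.41). It was 1.28 without the 4 arrays of high median (limma, adjusted p = 0.0815), 1.04 without stump 0 h replicate 1 and 0.143 without stump 0 h replicate 4. The stump at 22 h did exceed the section, by 1.45 ± 0.421 (limma, adjusted p = 0.0149), with no overlap of arrays. BBM and AGL42 were the 2 of 7 genes called there, against 12.2% of all probe sets. From the stump at 0 h the section differed by -0.833 ± 0.441 in AGL42 (limma, adjusted p = 0.209), a difference that passed without stump 0 h replicate 4, the array at 6.8 (-1.31, adjusted p = 0.0288), and shrank to -0.0349 without the 4 arrays of high median (0.981). The AGL42 call between 22 h and the section was lost without section replicate 1 (limma, adjusted p = 0.114) or 3 (0.0513), and its size fell to 0.725 with the larger pseudocount.

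The tip at 4 dpg gave AGL42 signals of 128.1, 41.6, 85.0 and 87.5, each below the 3 arrays of the tip at 8 dpg. The difference of 1.12 ± 0.441 did not pass (limma, adjusted p = 0.421). In that comparison 0 of the 7 genes were called, against 0.444% of all probe sets. All AGL42 signals of the tip at 4 dpg lay inside the range of the stump at 0 h, 6.8 to 217.1. The tip at 4 dpg differed from that stump by 0.115 ± 0.408 (limma, adjusted p = 0.933). Without the 4 arrays of high median the difference was 0.746 and did not pass either (limma, adjusted p = 0.482). AGL42 thus did not separate the excised tip from the freshly cut stump on these arrays. Against the stump at 0 h, the stump at 8 dpg differed by 1.17 ± 0.441 (limma, adjusted p = 0.0967). That difference did pass with quantile normalization (1.31, adjusted p = 0.0490), with median centring (1.43, 0.0168), without stump 0 h replicate 1 (1.59, 0.0158) and without the 4 arrays of high median (1.97, 0.00290).

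CLE40, the other niche gene, had low signals throughout. It gave 140.7, 96.9, 28.7 and 42.7 in the stump at 0 h, 54.2, 6.5, 45.2 and 2.6 in the tip at 4 dpg, and 19.8, 3.1 and 11.6 in the stump at 8 dpg. The 2 highest values at 0 h were on arrays whose median signal was itself above 120. Over all 30 arrays the log2 value of CLE40 and the log2 median of its array had a Pearson r of 0.674, a description of points that share tissue groups and array brightness, where the r of the other 6 genes lay between -0.297 and 0.38. In the other stumps CLE40 ranged from 7.9 to 50.0 at 5 h, from 25.6 to 59.4 at 13 h and from 3.5 to 94.4 at 22 h, and it gave 38.1, 8.3 and 26.6 in the tip at 8 dpg and 7.1, 82.2 and 1.0 in the section. The 3 section arrays thus included both the lowest CLE40 signal of all arrays and one of the 5 highest. The part of array brightness in the CLE40 values was not tested. No difference of CLE40 was called. The one farthest from 0 between a pair of groups was the stump at 8 dpg against the stump at 0 h, at -1.22 ± 0.452 (limma, adjusted p = 0.0901). It passed without stump 0 h replicate 3 (-1.46, adjusted p = 0.0394) and shrank to -0.648 without the 4 arrays of high median (adjusted p = 0.541). The tip minus stump difference of CLE40 at 8 dpg, less that at 4 dpg, was 1.23 ± 0.639 (limma, adjusted p = 0.809).

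Its receptor kinase ACR4, which restrains divisions of distal stem cells, was also dim. ACR4 lay between 5.9 and 88.6 on all 30 arrays and was not called in any comparison. In the section it gave 9.1, 11.7 and 6.5, and in the stump at 8 dpg 39.5, 36.8 and 88.6.

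JKD, of the ground tissue pathway, had its lowest signals in the stump at 5 h. The 4 arrays at 0 h gave 277.1, 48.6, 107.5 and 93.6, and those at 5 h gave 90.1, 10.6, 18.6 and 11.1. Replicate 1 was the highest array of its group at both times, as it was in the tip at 4 dpg (177.1) and at 22 h (263.1), but not at 13 h. In the tip and at 0 h and 22 h, replicate 1 was an array of high median. At 5 h replicate 1 overlapped the 0 h range while the other 3 arrays lay below that range. The difference was -1.32 ± 0.434 and did not pass (limma, adjusted p = 0.0877). Without the 5 h replicate 1 it was -1.67 and passed (limma, adjusted p = 0.0343), and with a pseudocount of 1 it was -2.29 and passed (0.0454).

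Later stumps had JKD signals of 69.5, 101.4, 67.1 and 123.4 at 13 h and 263.1, 91.6, 28.6, 81.3 and 117.3 at 22 h. From 5 h to 22 h the difference was 1.17 ± 0.411 (limma, adjusted p = 0.155). The tip at 4 dpg gave 177.1, 35.7, 91.9 and 65.5, the tip at 8 dpg 64.3, 106.9 and 89.9, and the section 49.3, 115.0 and 130.9. These groups overlapped each other, and the JKD difference between the section and the tip at 8 dpg was 0.0853 ± 0.501 (95% interval -0.933 to 1.10). The stump at 8 dpg was lower, at 22.0, 44.5 and 75.1, and differed from the stump at 0 h by -0.924 ± 0.468 (limma, adjusted p = 0.235).

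BIB and SCL23 are the other ground tissue genes with a named probe set. BIB, a zinc-finger factor related to JKD, lay between 4.7 and 85.4 and was not called in any comparison. SCL23, a GRAS-family factor related to SCARECROW, was called once, higher in the section than in the tip at 8 dpg by 1.50 ± 0.454 (limma, adjusted p = 0.0155). Its signal was 139.3, 98.5 and 82.4 in the section and 4.3, 3.3 and 56.9 in the tip at 8 dpg, without overlap. At 5 h the SCL23 signal was 59.2, 5.5, 8.3 and 90.6, so the arrays lowest in SCL23, replicates 2 and 3, were among the 3 lowest in JKD.

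LHW was above the median signal of every array, and its group means spanned the least of the 7 genes. Its signal was 509.7, 764.0, 1074.8 and 705.2 in the tip at 4 dpg and 258.4, 415.0, 561.7 and 516.6 in the stump at 0 h. The ranges overlapped at their edges, and the difference of 0.764 ± 0.225 was below the size threshold and did not pass (limma, adjusted p = 0.0595). During regeneration LHW lay near the 0 h level, at 439.5, 374.7, 405.1 and 450.0 at 5 h, 443.3, 573.3, 469.9 and 527.5 at 13 h, and 302.4, 534.9, 529.9, 553.6 and 390.4 at 22 h. The 22 h difference from 0 h was 0.0918 ± 0.214 (95% interval -0.343 to 0.527). Against the tip at 4 dpg, the stump at 22 h differed by -0.672 ± 0.214 (limma, adjusted p = 0.0653). Without the 4 arrays of high median that p was 0.00887, at a difference of -0.709 that was still below the size threshold. The tip at 8 dpg gave 664.3, 584.2 and 589.1, the stump at 8 dpg 486.7, 556.0 and 707.4, and the section 446.5, 494.6 and 441.1.

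OPS, the protophloem gene, was dim on most arrays and was called in no comparison. In the stump at 0 h it gave 10.6, 58.2, 40.5 and 74.1, and in the tip at 4 dpg 98.4, 12.5, 83.3 and 7.8. Replicates of the same group thus differed more than the groups did. The section arrays were close together at 57.1, 48.6 and 56.9, all above the tip at 8 dpg at 15.0, 4.4 and 21.9. That difference was 0.931 ± 0.444 and did not pass (limma, adjusted p = 0.159). At 5, 13 and 22 h OPS ranged from 14.6 to 102.7, and in the stump at 8 dpg it gave 4.9, 30.0 and 26.1. PHV, a class III homeodomain leucine zipper factor of vascular patterning, lay between 9.1 and 225.6 and was called in no comparison either.

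GSO1, the receptor of the Casparian strip, ran opposite to BBM and AGL42 between the tip at 8 dpg and the section. Its signal was 174.5, 157.8 and 259.2 in the section and 12.7, 18.5 and 68.9 in the tip at 8 dpg. The groups did not overlap, and the section was higher by 1.88 ± 0.425 (limma, adjusted p = 0.00118). The stump at 8 dpg was also low, at 43.6, 6.5 and 15.1, against 101.4, 173.9, 110.0 and 112.1 in the stump at 0 h. That difference, in a comparison added after the data were seen, was -1.58 ± 0.398 (limma, adjusted p = 0.00920). With BBM, GSO1 was among the 2 of 7 genes called there, against 6.8% of all probe sets. Its call was lost without stump 8 dpg replicate 2 (limma, adjusted p = 0.0828) or 3 (0.0509) and with only the groups compared (0.0609), and its size fell to -0.752 with the larger pseudocount.

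In the stumps of the time course GSO1 lay around its 0 h level, with 113.1, 79.3, 108.9 and 120.2 at 5 h and 194.5, 105.7, 105.7 and 58.5 at 13 h. At 22 h the arrays spread widely, over 174.3, 269.9, 283.3, 69.8 and 88.7. Replicates 2 and 3 at 22 h had the highest GSO1 signals of all 30 arrays. The difference between 22 h and 0 h was 0.296 ± 0.350 (95% interval -0.415 to 1.01). The tip at 4 dpg gave 142.5, 39.0, 70.4 and 66.4, and the stump at 22 h differed from it by 0.839 ± 0.350 (limma, adjusted p = 0.195).

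Replicates 2 and 3 at 22 h were also high in SGN1 of the barrier pathway and in the root hair markers, 2 of 4 of which had a named probe set. SGN1, a kinase that acts downstream of GSO1, gave 40.2, 261.4, 191.9, 35.8 and 11.3 on the 5 arrays at 22 h, and at most 98.3 on any other array. CIF2, a peptide ligand of GSO1, gave 129.3, 257.6, 83.3, 20.0 and 0.8. EXPA7, an expansin of root hair cells, gave 46.2, 704.7, 587.4, 75.9 and 85.6, and the root hair expansin EXPA18 gave 73.9, 601.2, 338.4, 44.5 and 35.4. Replicates 2 and 3 were the highest of the 5 in GSO1, SGN1, EXPA7 and EXPA18, and replicate 2 in CIF2. At 13 h replicate 1 was the highest of its group in GSO1 (194.5), SGN1 (98.3), CIF2 (51.2), EXPA7 (657.3) and EXPA18 (358.1). None of SGN1, CIF2, EXPA7 and EXPA18 was called in any comparison, and the part of tissue makeup in the GSO1 values at 22 h was not tested.

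**Figure D3:**
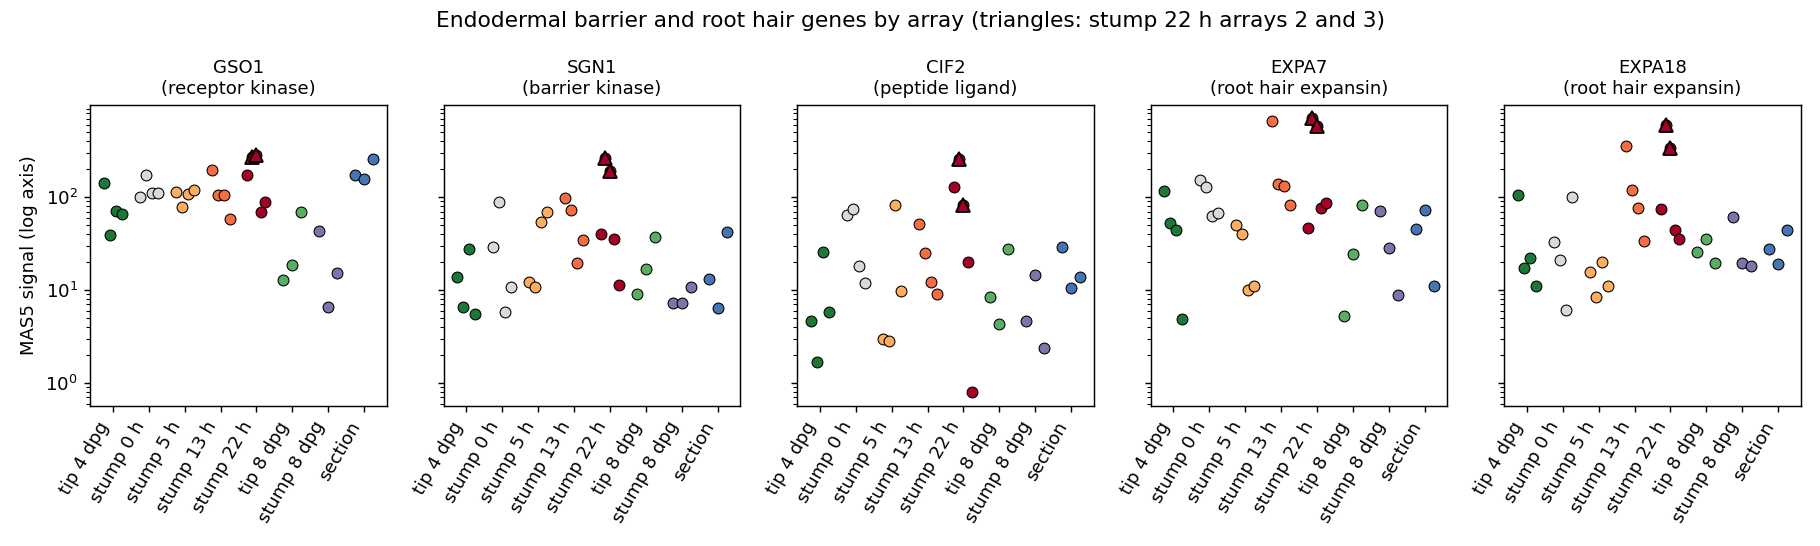
MAS5 signal on a log axis of GSO1, SGN1 and CIF2 of the Casparian strip pathway and of the root hair expansins EXPA7 and EXPA18, with 1 point per array and triangles for replicates 2 and 3 of the stump at 22 h. These 2 arrays reached 269.9 and 283.3 in GSO1, 261.4 and 191.9 in SGN1, and 704.7 and 587.4 in EXPA7.

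Of 74 genes in lists of root patterning genes by role, 14 had a named probe set, the 7 genes here and AIL1, BIB, SCL23, ACR4, PHV, CIF2 and SGN1. AIL1, an AP2-domain relative of BBM, lay at 21.1 or below on all arrays and was not called. Among these 14, the counts beyond the 7 genes added only the SCL23 call. Between the section and the tip at 8 dpg, 2 of the 14 were called higher and 2 lower, where 17.3% of all probe sets were called. The median difference was -0.0485, against -0.0499 over all probe sets. From 0 h to 22 h, 1 of the 14 was called higher and 0 lower, where 1.47% of all probe sets were called. The median was 0.102, against -0.0495 over all probe sets.

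Cell division and endoreduplication genes moved with several of these differences. All 3 Aurora kinase genes were called lower in the section than in the tip at 8 dpg (limma, log2 differences of -2.32, -2.43 and -1.81 for AUR1, AUR2 and AUR3), and all 3 lower than in the stump at 0 h, where BBM and AGL42 were not called. All 3 were called higher in the stump at 22 h than in the section, where BBM and AGL42 were called too, with a median difference of 1.94. Of all probe sets, 17.3%, 10.2% and 12.2% were called in these comparisons, in this order. AUR1 alone of the 3 was called in the stump at 8 dpg against 0 h (1.01 ± 0.319, limma, adjusted p = 0.0445), where BBM was higher and GSO1 lower. Of all probe sets, 6.8% were called there. SIM, which blocks cyclin-dependent kinases and favours endoreduplication, had signals of 986.2, 1071.4 and 1334.7 in the section and of 23.9, 32.6 and 4.4 in the tip at 8 dpg. It was at 1448.5, 1805.6, 342.2 and 334.0 in the stump at 0 h and at 9.5, 3.8 and 37.9 in the stump at 8 dpg, a difference of -4.05 ± 0.543 (limma, adjusted p = 2.72e-06). In the tip at 4 dpg, where BBM exceeded the 0 h stump, SIM was at 221.9, 24.4, 42.6 and 46.5, lower than at 0 h by a log2 difference of -3.03 ± 0.503 (limma, adjusted p = 0.000458). The SIM signals of 1448.5 and 1805.6 at 0 h and of 221.9 in the tip were on arrays of high median. The remaining 0 h arrays, at 342.2 and 334.0, still lay above every array of the tip at 4 dpg and of the stump at 8 dpg. There 0 of the 3 Aurora genes were called, with a median difference of 0.324. From 0 h to 5 h, where BBM rose, 0 of the 3 Aurora genes were called, against 2.63% of all probe sets. Their median difference was -0.689. At 13 h and 22 h against 0 h, where BBM was called too, 0 of the 3 were called, against 1.98% and 1.47% of all probe sets. The medians were 0.239 and 0.515, with 2 of the 3 genes higher at each time. AUR3 went the other way, with mean signals of 407 at 0 h, 243 at 13 h and 291 at 22 h. At such shares, 0 of 3 calls does not set the Aurora genes apart from other probe sets. SIM was not called at 5, 13 or 22 h against 0 h (-1.48, -1.16 and -0.876). From 5 h to 22 h AUR1 and AUR2 were called higher by 1.20 ± 0.280 and 1.59 ± 0.238 (limma, adjusted p = 0.0173 and 0.000153). AUR3 was not called there, with mean signals of 284 at 5 h and 291 at 22 h. Of all probe sets, 1.52% were called in that comparison. The part of the amount of dividing tissue in the differences of BBM, AGL42 and GSO1 was not tested.

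Across the 8 group means, BBM and AGL42 ran together (Pearson r 0.854), and so did OPS and GSO1 (0.854). AGL42 ran against OPS (-0.864) and GSO1 (-0.827), and BBM ran against GSO1 (-0.799). Over the 30 single arrays the same pairs gave 0.558, 0.575, -0.393, -0.436 and -0.528. These are descriptions over points that share tissue and array. For JKD, LHW and CLE40, r with the other genes over the group means lay between -0.635 and 0.581.

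The probe sets with 1 named gene whose 8 group means were most like those of BBM were NRPB6A (Pearson r 0.979), which encodes a subunit of RNA polymerases, AT5G56790 (0.979) and sks15 (0.975). The mean signal of sks15, a gene of the multicopper oxidase-like SKU5 family, was 298 in the stump at 0 h, 1460 at 5 h, 4860 in the tip at 8 dpg and 293 in the section. For AGL42 they were AT1G06980 (0.983), AT1G75340 (0.976) and AT1G49390 (0.975), all lowest in the section. For GSO1 they were AT3G23760 (0.983), AT2G47960 (0.982) and AT5G66440 (0.98), all lowest in the stump at 8 dpg. For LHW they were AT1G69800 (0.981), AT3G62000 (0.972) and AT3G43240 (0.97), all highest in the tip at 4 dpg.

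JKD was most like AT4G36210 (0.961), AT5G65560 (0.957) and AT3G42140 (0.947), all lowest in the stump at 5 h. OPS was most like UGT71C2 (0.969), a glucosyltransferase gene, OCT4 (0.964), an organic cation transporter gene, and CuAO1 (0.957), a copper amine oxidase gene. The mean signal of CuAO1 was 3020 in the stump at 5 h and 345 in the tip at 8 dpg. CLE40 was most like AT2G17740 (0.976), AT4G31030 (0.968) and AT2G04305 (0.961), all highest in the stump at 0 h, the group with 2 of the 4 arrays of high median. Each r is over 8 group means and was picked as the highest among the probe sets searched, so it is a description and not a test.

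**Figure D4:**
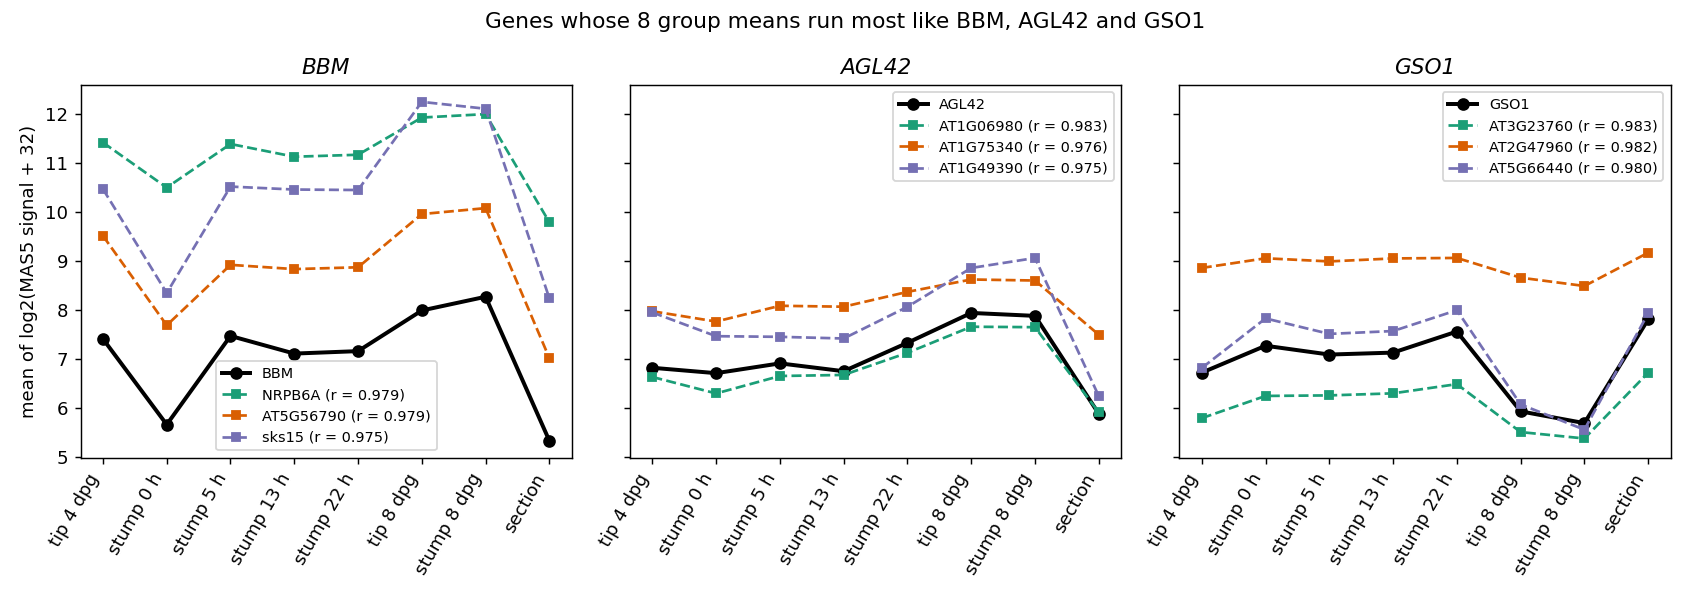
Means of log2(MAS5 signal + 32) in the 8 groups for BBM, AGL42 and GSO1 (black) and for the 3 probe sets whose means ran most like each (dashed, with Pearson r over 8 groups). The neighbours of BBM were low in the stump at 0 h and in the section, and those of GSO1 were lowest in the stump at 8 dpg.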

How the data were processed

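The deposited values are MAS5 intensities on a linear scale, 1 for each probe set of each array. MAS5 is named in the submitters' processing notes without a version. Per the labels, 50 ng of total RNA was amplified by the two-cycle protocol. Trimmed means (2%) of the arrays ran from 246.5 to 248.6, so the deposited intensities were not scaled again. They were converted to log2(signal + 32). A linear model with a mean for each of the 8 groups was fitted to all 30 arrays with limma (version 3.58.1; R version 4.3.3; functions lmFit, contrasts.fit and eBayes, trend=TRUE), and p-values were adjusted by Benjamini-Hochberg over the 22746 probe sets. The fit was tested on simulated data. The 7 genes, the gene lists and the tests were chosen with earlier results of these data known, and 2 comparisons were added to the planned 11 after the values were seen. The platform's gene table listed 14016 probe sets, 13513 of them with 1 gene, of which 13436 matched RefSeq (TAIR10.1, names only). The text names all 7 genes, the 3 probe sets most like each over the group means (among those whose highest group mean was above the median of all probe sets in that group), and the patterning genes called. Replicate numbers were not taken to pair the arrays, since none of the pairs of groups compared had every same-numbered pair correlated above 0.1. The correlations ran from -0.191 to 0.337 for tip 4 dpg and stump 0 h, and were all positive for stump 22 h with stump 0 h (0.028 to 0.628) and with tip 4 dpg (0.0192 to 0.308). Scanner settings files hold no measurement and were not used. Alternatives were a smaller pseudocount of 1 and a larger one, scaling by quantiles or by centring on the median, removal of the 40% of probe sets with the lowest mean, only the groups compared in the fit, a fit with a replicate block, omission of single arrays, and omission of the 4 arrays with a median above 120. Plots were drawn with matplotlib 3.10.9.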

Additional observations from a re-analysis of the deposited data

Results flagged for a closer look

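In the stump at 5 h, replicate 1 had a JKD signal of 90.1, far from the other 3 arrays (10.6, 18.6 and 11.1); its gap to the nearest was 0.899 of the group's range, above Dixon's limit of 0.829. In the stump at 0 h, replicate 2 had a GSO1 signal of 173.9, with a gap of 0.852 of the range, above the same limit. These were 2 of 35 groups of 4 or 5 arrays examined, and chance alone puts about 1 in 20 groups past the limit if values are normally distributed. The rule was applied to the linear signals and not to the log2 values used for the differences, and the flags may depend on that choice.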

How the results depend on the processing

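All 11 called differences of the 7 genes kept their direction under every alternative, and no call turned. Of 91 pairs of gene and comparison, 37 turned sign under at least 1 alternative, in 111 of 1444 values, always while uncalled. The 2 scaling alternatives kept all 11 calls; median centring moved the median of all probe sets from -0.228 to 0.179 between the section and the stump at 0 h. Leaving out the dimmest probe sets kept all 11 calls but removed OPS and CLE40 from the test.

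Counts of called probe sets moved by over 1.5 times as follows. The larger pseudocount gave 245 (tip 4 dpg against stump 0 h, 494 before), 234 (5 h against 0 h, 599), 238 (13 h, 450), 182 (22 h, 335), 159 (22 h against 5 h, 345), 376 (22 h against tip 4 dpg, 780), 1008 (section against stump 0 h, 2318), 2402 (section against tip 8 dpg, 3926), 1291 (22 h against section, 2770) and 797 (stump 8 dpg against 0 h, 1547). Of the 7 genes it left 0 called for the tip, 5 h, 13 h and 22 h against 0 h and 22 h against the section, and 1 for the stump at 8 dpg against 0 h; a pseudocount of 1 gave 2 at 5 h. With only the groups compared, the counts were 54, 139, 166 and 77 (tip, 5, 13 and 22 h against 0 h), 116 (22 h against 5 h), 274 (22 h against the tip), 15 (tip against stump, 8 dpg), 569 (section against 0 h) and 663 (stump 8 dpg against 0 h), with 0 of the 7 genes for the tip, 13 h and 22 h and 1 for the stump at 8 dpg. Without the 4 arrays of high median they were 670 (22 h against 0 h), 537 (22 h against 5 h), 1481 (22 h against the tip), 220 (tip 8 against 4 dpg, 101 before) and 169 (change of the tip-to-stump difference, 43 before). For that change, leaving out the dimmest probe sets gave 79.

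The replicate block, although the numbers were not taken to pair the arrays, gave 549 called probe sets for 22 h against 5 h and 76 for the change of the tip-to-stump difference; among the 7 genes it altered 1 call, CLE40 in the stump at 8 dpg against 0 h (-1.35, limma, adjusted p = 0.0395).

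Leaving out 1 array gave 281 to 989 called probe sets for the tip at 4 dpg against 0 h, 344 to 1078 for 5 h, 328 to 842 for 13 h, 213 to 549 for 22 h, 204 to 462 for 22 h against 5 h, 497 to 1142 for 22 h against the tip, 25 to 110 for the tips, 1217 to 3478 for the section against 0 h, 974 to 2306 for the stump at 8 dpg against 0 h, and 17 to 93 for the change of the difference. Of the 7 genes, 1 to 2 were called at 5 h, 0 to 1 at 13 h and at 22 h, 0 to 1 for the section against 0 h (AGL42, -1.31, limma, adjusted p = 0.0288, without stump 0 h replicate 4), 1 to 2 for 22 h against the section and 1 to 3 for the stump at 8 dpg against 0 h. The cause of these changes was not tested, and dim signals limit OPS and CLE40.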
